A study of Mus musculus with 2 samples.

Results

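The acute phase genes of the liver encode plasma proteins whose output by hepatocytes changes during inflammation. The set held 10 genes chosen by symbol: the scavengers Hp and Hpx, the serum amyloids Saa1, Saa2 and Saa3, the transport protein gene Orm1, the fibrinogen chains Fga, Fgb and Fgg, and Itih4. All 10 symbols were found, among 32285 gene features. They were followed in barcodes, each standing for about 1 captured cell, of single-cell RNA libraries from mouse liver tumours. The shCtrl library carried the genotype label WT, and the shSrsf10 library came from tumours with a short hairpin RNA against the splicing factor gene Srsf10. Each group had 1 library, so no difference could be set against replicates and no test between the libraries was made. The number of animals behind a library, the sort gate, the mouse strain and the tumour model were not given in the labels used here, and the labels disagreed on whether the 5′ or the 3′ chemistry was used.

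In the textbook account, interleukin 6 binds its receptor and gp130 on hepatocytes, the kinase JAK activates STAT3, and STAT3 switches on acute phase genes. Interleukin 1 and tumour necrosis factor act through NF-kB and C/EBP proteins and drive the serum amyloids above all. Positive acute phase proteins increase in plasma, while negative ones such as albumin and transthyretin decrease. Haptoglobin binds free haemoglobin and haemopexin binds free haem, the 3 fibrinogen chains assemble into the clotting protein, and neutrophil precursors also make haptoglobin and orosomucoid.

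The 3 fibrinogen genes were neighbours on chromosome 3 of GRCm38, the build also called mm10. Fgg spanned 83007724 to 83015049 and Fga 83026076 to 83033627 on the plus strand, and Fgb spanned 83040141 to 83049863 on the minus strand. The serum amyloid genes lay together on chromosome 7, with Saa3 at 46711998 to 46715700, Saa1 at 46740497 to 46742980 and Saa2 at 46751790 to 46754313. Hpx lay apart from them on chromosome 7 at 105591613 to 105600137. Hp lay on chromosome 8 at 109575128 to 109579172, Orm1 on chromosome 4 at 63344560 to 63348163 and Itih4 on chromosome 14 at 30886476 to 30902353. All 10 were annotated as protein coding in GENCODE M21.

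The bases before the annotated starts of the fibrinogen and serum amyloid genes are shown because, in the counts below, the fibrinogen chains parted from each other and Saa1 and Saa2 are close copies. RefSeq promoter entries matched 8 of the 10 members, and those for Hp and Orm1 are not given. Each line runs 5′ to 3′ along the gene's strand over the 170 bases before its GENCODE start, in GRCm38.p6. Capitals mark matches on either strand to CTGGGA, an interleukin 6 type element, TTCNNNGAA, a STAT type site, TTNNGNAA, a C/EBP type site, or GGG and TTCC with any 3 bases between them, an NF-kB type site.
Fga (chr3:83025906-83026075, plus strand): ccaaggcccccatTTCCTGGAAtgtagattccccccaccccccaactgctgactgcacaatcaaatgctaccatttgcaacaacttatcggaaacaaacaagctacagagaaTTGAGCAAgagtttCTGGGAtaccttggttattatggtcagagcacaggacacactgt
Fgb (chr3:83049864-83050033, minus strand): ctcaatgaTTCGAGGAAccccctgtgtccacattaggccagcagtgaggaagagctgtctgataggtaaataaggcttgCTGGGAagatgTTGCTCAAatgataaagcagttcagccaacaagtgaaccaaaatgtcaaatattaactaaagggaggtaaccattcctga
Fgg (chr3:83007554-83007723, plus strand): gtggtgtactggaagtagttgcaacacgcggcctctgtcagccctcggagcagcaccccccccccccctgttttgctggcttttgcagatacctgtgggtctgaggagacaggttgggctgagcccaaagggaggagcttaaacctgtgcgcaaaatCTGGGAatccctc
Saa1 (chr7:46742981-46743150, minus strand): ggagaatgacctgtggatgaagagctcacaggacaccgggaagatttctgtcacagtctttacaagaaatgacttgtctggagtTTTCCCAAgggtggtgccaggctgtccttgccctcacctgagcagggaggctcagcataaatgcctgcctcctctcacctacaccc
Saa2 (chr7:46751620-46751789, plus strand): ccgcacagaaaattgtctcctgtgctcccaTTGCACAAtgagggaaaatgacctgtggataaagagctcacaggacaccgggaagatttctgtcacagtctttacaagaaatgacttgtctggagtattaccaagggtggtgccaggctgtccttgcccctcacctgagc
Saa3 (chr7:46715701-46715870, minus strand): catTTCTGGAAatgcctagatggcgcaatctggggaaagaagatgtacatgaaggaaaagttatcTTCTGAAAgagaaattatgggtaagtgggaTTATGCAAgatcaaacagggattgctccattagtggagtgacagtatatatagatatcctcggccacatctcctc
The letters CTGGGA stood in all 3 fibrinogen stretches and in none of the serum amyloid stretches. They also stood in the last 170 bases before the RefSeq start of 19.5% of the 32851 entries of the RefSeq promoter table. The stretches printed end at the GENCODE start instead. That start lay upstream of the RefSeq start by 77 bases for Fga, 43 for Saa2 and 24 for Saa3. For these genes the bases between the 2 starts were not searched. TTCNNNGAA stood in the Fga and Fgb stretches and was not in that of Fgg, against 4.61% of all entries. TTNNGNAA stood in 5 of the 6 stretches printed, with 3 matches for Saa3, and in 25.7% of all entries. The NF-kB type letters stood in none of the 6, against 3.37% of entries, and no matches overlapped. Such matches describe the letters and do not show binding.

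Saa1 and Saa2 had 123 identical bases among 127 that could be aligned in these stretches. Their main transcripts were 94.4% identical, and their last 300 bases 94.3%. Orm1 was 97.7% identical to Orm2 over the last 300 bases and 91.3% identical to Orm3. Reads from such copies can be split or lost in counting, so the levels of Saa1, Saa2 and Orm1 are uncertain. How the submitters' counting treated reads that match several genes was not given in the sources used here.

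A barcode entered the analysis if it had 200 or more genes, 500 or more UMIs (unique molecular identifiers, 1 for each captured RNA molecule) and no more than 20% of them mitochondrial. This left 9542 of 9920 shCtrl barcodes with 142783013 UMIs, and 7486 of 7553 shSrsf10 barcodes with 136332461 UMIs. Tumour barcodes had at least 5 UMIs of the keratin genes Krt8 and Krt18 together and none of the leukocyte gene Ptprc, and numbered 6950 in shCtrl and 3953 in shSrsf10. Their median depth differed, at 17309.5 and 26474 UMIs. Neutrophil barcodes, with at least 1% of UMIs in S100a8 and S100a9, numbered 157 and 300 at medians of 701 and 804.5 UMIs. Macrophage barcodes, with at least 3 UMIs of C1qa, C1qb and C1qc, numbered 494 and 179. T cell barcodes, which should lack these genes, numbered 324 and 1855 and were set beside the others for free RNA in the droplets. Their rule left out barcodes with 5 or more keratin UMIs, which the neutrophil and macrophage rules did not. The rules overlapped: 75 shCtrl and 23 shSrsf10 barcodes met both the tumour and the macrophage rule. Both the tumour and the neutrophil rule were met by 4 and 1. The 2 libraries shared 67 barcode sequences, 26 of them in tumour barcodes.

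The barcode groups were checked against marker genes. In tumour barcodes all 9 tumour or hepatocyte markers had UMIs, with a sum of 10729 UMIs per 1000000 UMIs (CPM) in shCtrl and 10022 in shSrsf10. The 7 mature hepatocyte markers, such as Cyp2e1 and Cps1, summed to only 14.3 and 21.0003 CPM there, most of it Ass1. Neutrophil barcodes had all 7 neutrophil markers, at 137184 and 102754 CPM, but also 3686 and 1663 CPM of tumour or hepatocyte markers. Macrophage barcodes held 6163 and 6329 CPM of the latter, and T cell barcodes only 866 and 333 CPM. T cell levels can thus understate the tumour RNA in neutrophil and macrophage barcodes. The hairpin's target Srsf10 was at 45.7 CPM in shCtrl and 19.8 CPM in shSrsf10 tumour barcodes, a log2 ratio of -1.21.

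In tumour barcodes the 10 genes did not move together. Hp and Itih4 were higher in shSrsf10, Fga, Fgg and Saa1 were lower, and Hpx, Fgb, Saa3 and Orm1 differed by less than 1.5-fold. A gene was called higher or lower at 1.5-fold, with at least 20 UMIs over both libraries, and Saa2 missed that minimum. The counts were 2 higher, 3 lower and 4 between among the 9 measured. Over all 15034 genes measured, 9.43% were higher and 12.9% lower by the same rule. The median log2 ratio, always shSrsf10 over shCtrl, was 0.09 for the 9 members and -0.06 for all genes measured. Intervals are exact, at 95%, and cover counting error only.

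**Figure D1:**
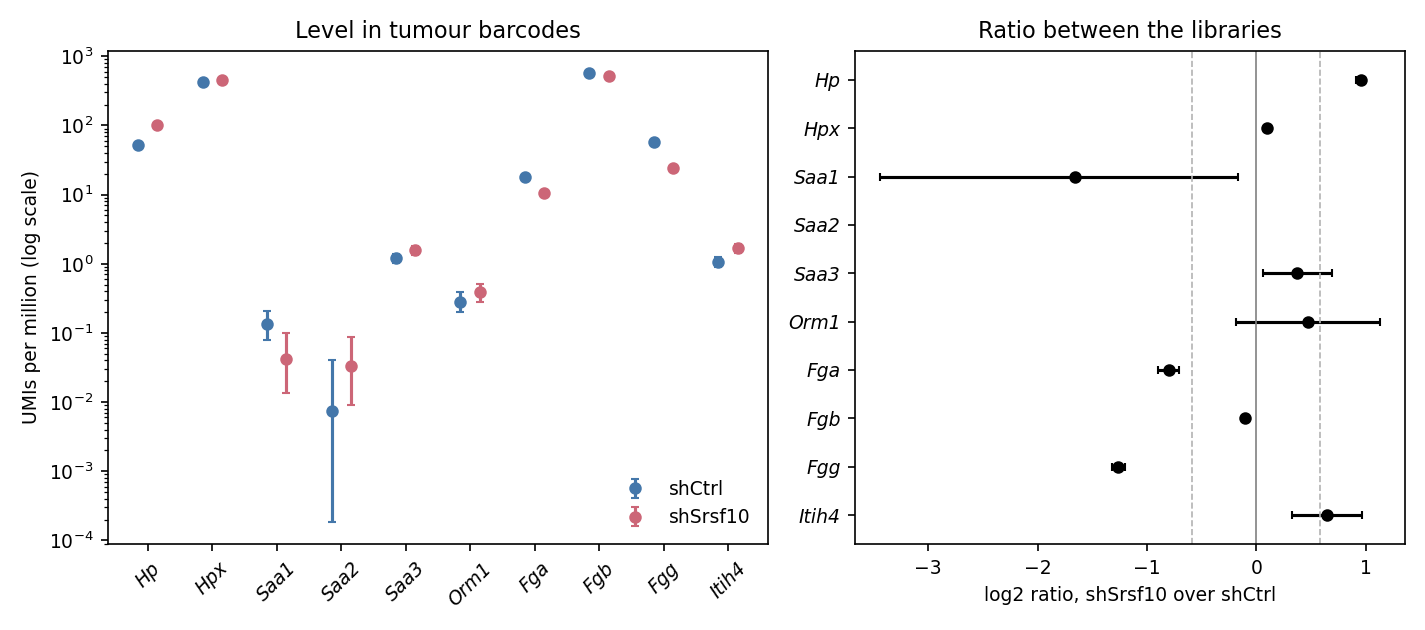
CPM of each member in tumour barcodes of shCtrl and shSrsf10 on a log axis (left, bars are exact Poisson intervals), and the log2 ratio between the libraries for the 9 members with at least 20 UMIs (right, bars are exact binomial intervals, dashed lines mark 1.5-fold). Hp stands at 0.95 and Fgg at -1.26, while Hpx and Fgb lie close to 0.

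Of the scavengers, Hp stood at 52.5 CPM (51.3 to 53.7) in shCtrl and 102 CPM (99.9 to 104) in shSrsf10. The log2 ratio was 0.95 (0.91 to 1.00), and the intervals did not overlap. An Hp UMI was found in 32.7% of shCtrl and 54.4% of shSrsf10 tumour barcodes, and, with barcodes under 1000 UMIs left out and the other 6916 and 3928 thinned to 1000, in 4.64% and 9.19%. In T cell barcodes, at medians of 1891 and 2447 UMIs, the shares were 0.309% and 2.21%, and after the same thinning 0.353% of 283 and 0.844% of 1777. Hpx stood at 430 CPM (427 to 434) and 459 CPM (455 to 463), a log2 ratio of only 0.09 (0.08 to 0.11). It was found in 90.1% and 91.7% of tumour barcodes.

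Hp was also held by fewer barcodes than Hpx. The 10% of tumour barcodes richest in Hp held 69.7% of its UMIs in shCtrl and 59.0% in shSrsf10. For Hpx these shares were 34.5% and 34.7%. At least 10 Hp UMIs were found in 1.81% of shCtrl and 8.75% of shSrsf10 tumour barcodes. No Hp UMI was found in 67.3% and 45.6%. The higher Hp total in shSrsf10 thus came with both more positive barcodes and more barcodes with many UMIs. These shares were not matched for depth or for the lower level of Hp beside Hpx, and the tumour barcodes had medians of 17309.5 and 26474 UMIs. Only the share with an Hp UMI was also taken after thinning, as given above.

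The fibrinogen chains parted. Fgb, the beta chain, stood at 565 CPM (561 to 569) in shCtrl and 526 CPM (522 to 530) in shSrsf10, a log2 ratio of -0.10. Fgg, the gamma chain, stood at 58.5 CPM (57.2 to 59.8) and 24.4 CPM (23.5 to 25.3), a log2 ratio of -1.26 (-1.32 to -1.20). Fga, the alpha chain, stood at 18.2 CPM (17.5 to 18.9) and 10.4 CPM (9.86 to 11.03), a log2 ratio of -0.80 (-0.90 to -0.70). Fgg and Fga were thus lower in shSrsf10, with intervals that did not overlap, while Fgb was within 1.5-fold.

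Fgg and Fga UMIs came from few tumour barcodes. The richest 10% of barcodes held 82.9% of Fgg in shCtrl and 88.7% in shSrsf10, against 40.2% and 39.5% of Fgb. The richest 1% held 54.7% and 47.1% of Fga. Without those 1% the Fga log2 ratio was -0.51, below the 1.5-fold mark, while that of Fgg was -1.29. Among barcodes with at least 5000 UMIs, 6459 and 3763, Fgb was found in 93.9% and 94.3%, Fgg in 26.4% and 18.4%, and Fga in 9.74% and 10.5%. Fga was found in 26.4% of shCtrl barcodes with Fgg and in 3.78% of those without, and in shSrsf10 in 37.4% and 4.43%. All 3 chains were found together in 6.95% and 6.88%. Fgb with neither of the others was found in 65.2% and 72.4%. These shares were not matched for depth beyond the minimum of 5000 UMIs. Neither they nor the shares of the richest barcodes were matched for the level of the gene, which was far higher for Fgb. A barcode without an Fga or Fgg UMI can thus come from a cell that expresses these genes.

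Tumour barcodes with at least 0.1% of their UMIs in the apolipoprotein gene Apoa1 numbered 258 in shCtrl and 116 in shSrsf10. They held higher levels of Fga, Fgg and Hp than the others, and also of Hpx, Fgb, Itih4, Saa3 and Orm1. Fga was at 248 and 160 CPM there, against 8.63 and 6.64 CPM in the other tumour barcodes. Fgg was at 446 and 263 CPM against 42.4 and 18.4 CPM, and Hp at 211 and 372 CPM against 45.9 and 94.8 CPM. Without the Apoa1-rich barcodes the log2 ratio was 1.05 for Hp, -1.21 for Fgg and -0.38 for Fga. Fga therefore fell under 1.5-fold without them, and Hp and Fgg did not. This split was chosen after the data were seen.

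The serum amyloids were rare. Saa1 had 18 UMIs in shCtrl and 5 in shSrsf10 tumour barcodes, a log2 ratio of -1.66 with a wide interval (-3.44 to -0.17). Saa2 had 1 and 4 UMIs, too few for a ratio. Saa3, which many cell types outside the liver can make, had 163 and 185 UMIs, or 1.20 CPM (1.02 to 1.40) and 1.56 CPM (1.34 to 1.80), a log2 ratio of 0.38 (0.06 to 0.69). It was found in 76 and 91 tumour barcodes, and 39 of the shCtrl UMIs stood in 1 barcode. Without the richest barcode of each library Saa3 was at 0.61, past 1.5-fold, so its size rested on few barcodes. The richest 1% of barcodes held 96.3% of its UMIs in shCtrl and 72.4% in shSrsf10. The ratio without them, 3.33, therefore compares unlike remainders and gives no size for the difference. Saa1 fell to 19 UMIs without its richest barcodes, under the minimum. None of the 3 serum amyloids was thus abundant in either library's tumour barcodes.

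Single barcodes also set where these genes were seen elsewhere. Of the 21 Saa2 UMIs in all kept shCtrl barcodes, 20 lay outside the tumour, neutrophil, macrophage, T cell, fibroblast and endothelial rules, and 14 of them in 1 barcode of 2111 UMIs. That barcode also held 5 Saa1 and 9 Saa3 UMIs, with 2 keratin UMIs and none of Ptprc. In shSrsf10, 100 of 382 Saa3 UMIs stood in 1 barcode of 42031 UMIs that met the macrophage rule and held 208 keratin UMIs. Saa1 and Saa2 had no UMI in neutrophil or T cell barcodes of either library. For the 1855 shSrsf10 T cell barcodes, a count of 0, taken as 3 counts, allows a share of up to 0.162% of barcodes with a UMI, which does not limit the share of cells that express the gene.

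Orm1, orosomucoid, had 38 UMIs in shCtrl and 46 in shSrsf10 tumour barcodes, a log2 ratio of 0.47 (-0.18 to 1.13). In shSrsf10, 25 of the 46 stood in 1 barcode, which held 82 Apoa1 and 40 Mup3 UMIs, hepatocyte genes. Without the richest barcode of each library the log2 ratio was -0.32, so its direction rested on those barcodes. Itih4, the heavy chain 4 of the inter-alpha-trypsin inhibitor family, had 145 and 198 UMIs. Its level was 1.07 CPM (0.90 to 1.26) and 1.67 CPM (1.44 to 1.92), a log2 ratio of 0.64 (0.33 to 0.96). Without barcodes that met more than 1 cell rule its log2 ratio was 0.58 and fell just under 1.5-fold.

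Because shSrsf10 tumour barcodes were deeper, the ratios were also taken within 5 ranges of depth from 2000 UMIs upward. Hp was higher in shSrsf10 in all 5, with log2 ratios of 1.00, 1.44, 1.31, 1.15 and 0.79 from the shallowest to the deepest. Fgg was lower in all 5, at -0.32 and -0.28 in the 2 shallowest, whose intervals held 0, and at -1.20, -0.98 and -1.34 in the others. Fga was at 0.32 (-0.43 to 1.01) in the shallowest range, an interval that held 0, and at 0.97 (0.51 to 1.41) in the next. Above 10000 UMIs it was lower, at -0.69, -0.66 and -0.99. Its mean over the ranges was -0.21. Fga was thus lower in shSrsf10 only in the 3 deeper ranges. Itih4 was at 1.03, 0.62, 0.28, 1.66 and 0.45, the first from only 11 and 6 UMIs. Only the interval from 20000 to 40000 UMIs, 1.16 to 2.19, lay above 0, and the others held 0. That range held 112 of the 198 Itih4 UMIs of shSrsf10.

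**Figure D2:**
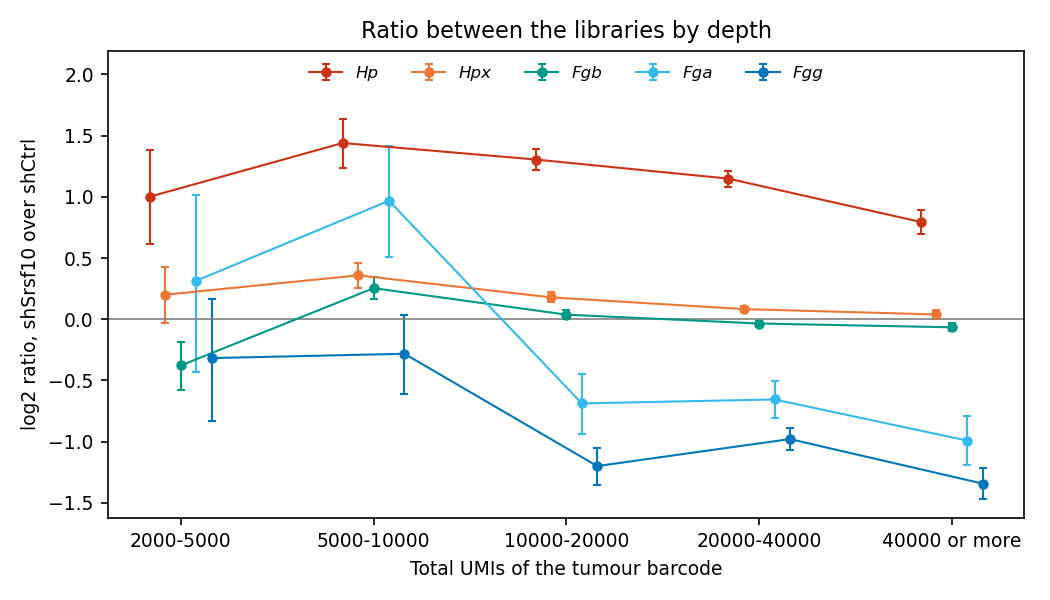
Log2 ratio of 5 members in tumour barcodes, shSrsf10 over shCtrl, by total UMIs of the barcode, with exact 95% intervals for counting error. Hp is at 0.79 or more and Fgg below 0 in each range. Fga is above 0 below 10000 UMIs, where the interval of the shallowest range holds 0, and below 0 in the deeper ranges.

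The tumour barcodes were then split by their share of UMIs in 4 MHC class II genes, Cd74, H2-Aa, H2-Ab1 and H2-Eb1, which present antigen and are induced by interferon gamma. Barcodes with 0 such UMIs made up 60.5% of shCtrl and 10.5% of shSrsf10 tumour barcodes, 4205 and 416. Those with at least 0.1% made up 4.76% and 41.8%, 331 and 1654. The rest, 2414 and 1883, lay between.

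Hp was highest where MHC class II was highest, in both libraries. In shCtrl it was at 50.6, 52.3 and 79.3 CPM from the 0 group to the 0.1% group, and in shSrsf10 at 61.7, 68.7 and 151 CPM. The log2 ratio of the 0.1% group over the 0 group was 0.65 (0.50 to 0.79) in shCtrl and 1.29 (1.16 to 1.43) in shSrsf10. In shSrsf10 this held in all 5 depth ranges, at 1.10 to 2.11. In shCtrl it held in 4 of them, at 0.43 to 1.00, and was -0.75 in the shallowest, where the interval was -1.91 to 0.22. Between the libraries, Hp was higher in shSrsf10 by log2 ratios of 0.28 in the 0 group, 0.39 in the middle group and 0.93 in the 0.1% group. With both libraries weighted to the same mix of the 3 groups, Hp was at 57.5 CPM in shCtrl and 83.8 CPM in shSrsf10, a log2 ratio of 0.54 in place of 0.95. At equal mix Hp was still higher in shSrsf10, by less than 1.5-fold.

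Over all depths together, the other members followed the MHC class II groups less or differently. Hpx was at 430, 429 and 435 CPM across the groups of shCtrl and at 358, 426 and 518 CPM in shSrsf10. Its log2 ratio of the 0.1% over the 0 group was 0.02 in shCtrl and 0.54 in shSrsf10, and whether these differ was not tested. Fgb was at 585, 537 and 587 CPM in shCtrl and 477, 486 and 586 CPM in shSrsf10. Fgg was at 64.8, 49.7 and 63.4 CPM in shCtrl and 28.0, 19.9 and 29.7 CPM in shSrsf10. It was lower in shSrsf10 in each group, with log2 ratios of -1.21, -1.32 and -1.09. Fga was at 22.2, 13.4 and 12.3 CPM in shCtrl and 10.97, 9.06 and 12.1 CPM in shSrsf10. In the 0.1% group its log2 ratio between the libraries was -0.03 (-0.39 to 0.36). Within depth ranges of shSrsf10, the log2 ratio of the 0.1% over the 0 group was 0.47 to 0.82 for Hpx. Fgb ranged from 0.26 to 0.71. For Fgg it was 0.18, 1.75, 1.80, -0.28 and 2.30 from the shallowest range to the deepest. Fga was at 0.93, 1.28, -0.07 and 3.36 from 5000 UMIs upward, the last with 1 UMI in the 0 group. In shCtrl, Fgg was at -2.66, 1.11, -0.05, 0.17 and -2.57. The near equal Fgg levels of the shSrsf10 groups were thus not found in each range.

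Itih4 was at 1.12, 1.00 and 1.09 CPM across the groups of shCtrl and 0.774, 0.895 and 2.81 CPM in shSrsf10. The last value rested on 136 UMIs, against 6 in the 0 group, and 88 of the 136 came from barcodes of 20000 to 40000 UMIs. Between the libraries its log2 ratio was -0.53 in the 0 group, -0.16 in the middle group and 1.37 in the 0.1% group, and 0.25 at equal mix. Saa3 was at 0.888, 0.841 and 9.08 CPM in shCtrl, where 39 of the 50 UMIs of the 0.1% group came from 1 barcode, and at 0.645, 0.927 and 2.52 CPM in shSrsf10. At equal mix, with the barcode of 39 UMIs kept, the Saa3 log2 ratio between the libraries was -1.15, against 0.38 over all tumour barcodes. Equal mix gives the 0.1% group of shCtrl, and so that barcode, more weight. The -1.15 therefore gives no direction for Saa3. By the 1.5-fold rule, 2 members were higher and 1 lower of 8 measured in the 0.1% group of shCtrl, where 11.6% of all genes measured were higher and 6.97% lower. In shSrsf10 3 were higher and 0 lower of 7 measured, against 16.4% and 6.72% of all genes.

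**Figure D3:**
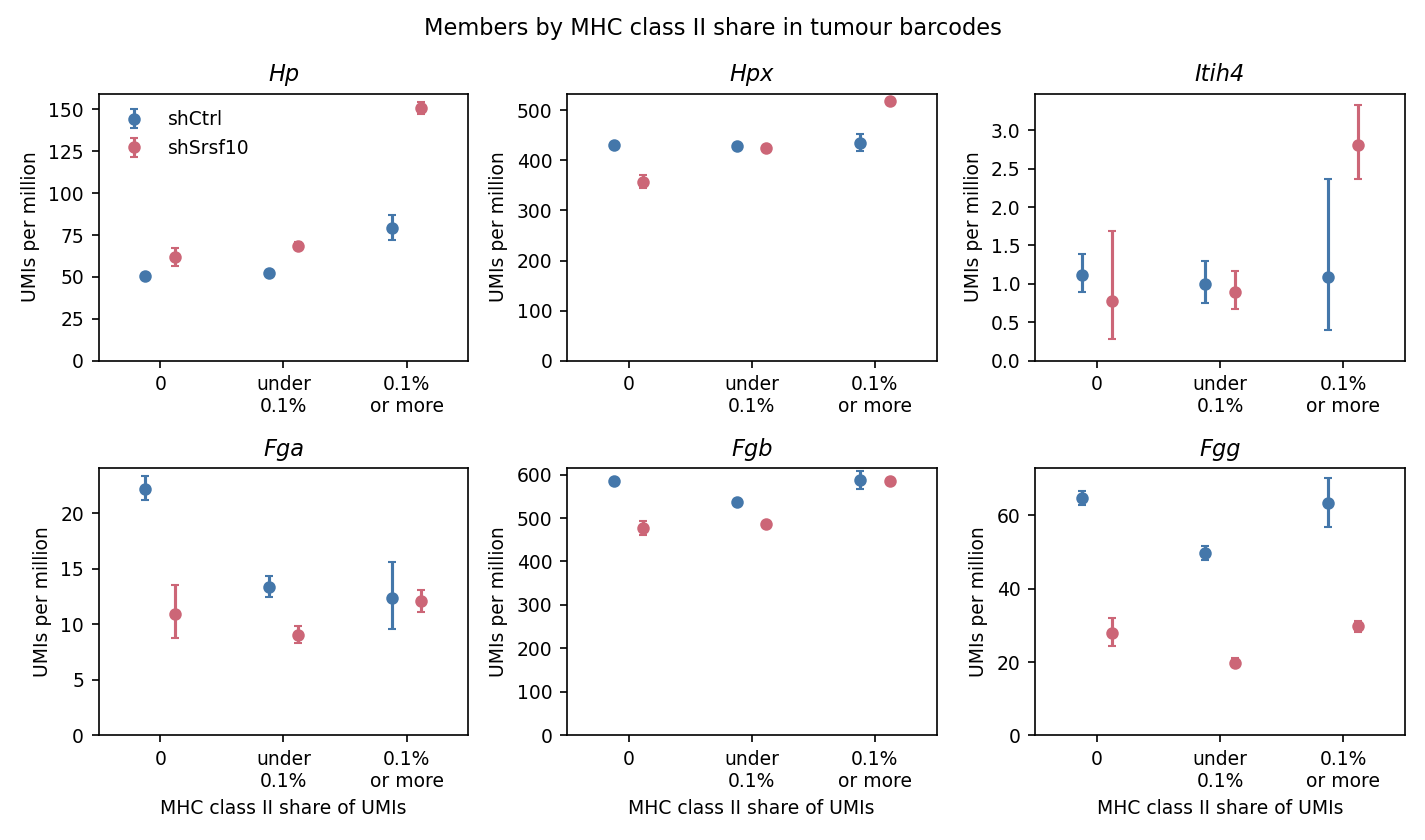
CPM of 6 members in tumour barcodes by their share of UMIs in 4 MHC class II genes, for shCtrl and shSrsf10, with exact Poisson intervals and axes from 0. Hp reaches 151 in the highest group of shSrsf10, and Fgg of shSrsf10 stays below that of shCtrl in each group.

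Markers of other cells moved with these groups. The 7 macrophage markers summed to 12.1 CPM in the 0 group and 157 CPM in the 0.1% group of shCtrl, and to 11.6 and 14.3 CPM in shSrsf10. The 7 neutrophil markers summed to 19.0 and 23.6 CPM in shCtrl and 19.6 and 34.8 CPM in shSrsf10, and the 7 T cell markers to 4.95 and 5.99 CPM and to 15.5 and 26.7 CPM. Without tumour barcodes that also met the macrophage or neutrophil rule, the Hp log2 ratio of the 0.1% over the 0 group was 0.75 in shCtrl and 1.29 in shSrsf10, about as large as with them. The part of the remaining free RNA in these values was not tested.

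Across tumour barcodes with at least 5000 UMIs, the levels of several members varied together. With UMIs scaled to 10000 per barcode on a log scale, Fga and Fgg had Pearson correlations of 0.62 in shCtrl and 0.64 in shSrsf10, Fgb and Fgg 0.53 and 0.46, and Hpx and Fgb 0.45 and 0.59. The 5 genes most like Hp among 7539 considered were Fgb with a mean correlation of 0.50, Ahsg with 0.46, Fgg with 0.44, Hpx with 0.43 and C3 with 0.41. Ahsg encodes fetuin A and C3 the central complement protein. For Saa3 the highest were Hp at 0.15 and Lcn2 at 0.14, then Fgg, Gc and Apoa2 at 0.12, 0.11 and 0.11, too weak in counts this sparse to read. The barcodes of a library share its depth and its free RNA, so these values describe 2 libraries.

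In neutrophil barcodes Hp was the member with the most UMIs, 99 in shCtrl and 372 in shSrsf10. It stood at 561 CPM (456 to 684) in shCtrl and 1101 CPM (992 to 1219) in shSrsf10, a log2 ratio of 0.97 (0.65 to 1.31). An Hp UMI was found in 29.9% of shCtrl and 44.0% of shSrsf10 neutrophil barcodes, and in 0.309% and 2.21% of the deeper T cell barcodes. With no keratin UMI in the barcode, Hp was at 683 and 1138 CPM in 101 and 231 barcodes, a log2 ratio of 0.74 (0.33 to 1.16). T cell barcodes had 1.04 CPM (0.03 to 5.78) and 8.92 CPM (6.79 to 11.5). Both neutrophil values were thus far above those of T cells, and Hp was higher in shSrsf10 in tumour and neutrophil barcodes alike.

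Hp per UMI of Fgb, the chain with the most UMIs in tumour barcodes, differed between the barcode groups. The ratio was 0.093 in shCtrl and 0.193 in shSrsf10 tumour barcodes, 2.61 and 8.45 in neutrophil barcodes, and 0.017 and 0.360 in T cell barcodes. Hpx per UMI of Fgb varied far less, at 0.761 and 0.872 in tumour, 0.684 and 0.636 in neutrophil and 0.627 and 0.573 in T cell barcodes. In neutrophil barcodes without a keratin UMI, Hp per UMI of Fgb was 5.64 and 11, and Hpx per UMI of Fgb was 0.455 and 0.273, from only 5 and 6 Hpx UMIs. Hp was thus high beside Fgb in all neutrophil barcodes together and in those without keratin, and Hpx was not. The 5 and 3 neutrophil barcodes with at least 5 keratin UMIs held only 3 and 3 Hp UMIs, against 18 and 8 of Fgb. In macrophage barcodes without a keratin UMI, Hp per UMI of Fgb was 0.318 and 4.8, the latter from 24 Hp and 5 Fgb UMIs.

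**Figure D4:**
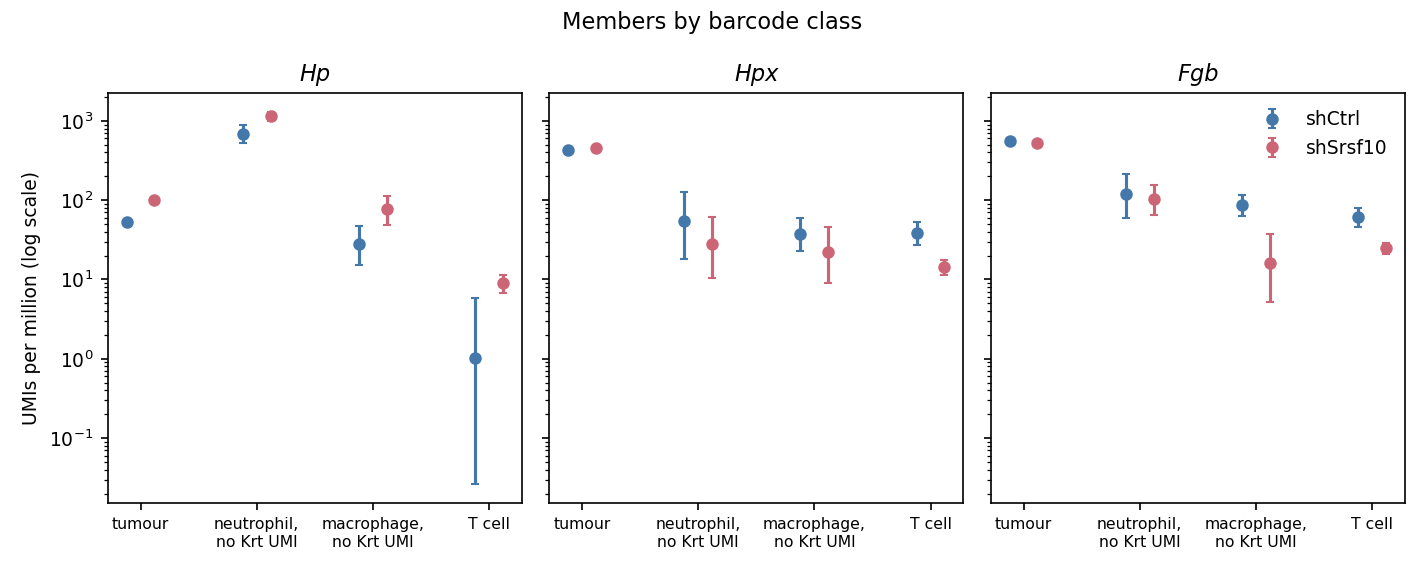
CPM of Hp, Hpx and Fgb on a log axis in tumour barcodes, in neutrophil and macrophage barcodes without a keratin UMI, and in T cell barcodes of shCtrl and shSrsf10, with exact Poisson intervals. Hp is highest in neutrophil barcodes, and Hpx and Fgb are highest in tumour barcodes.

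Of the other members, 4 reached 20 UMIs in neutrophil barcodes. Hpx had 26 and 28 UMIs, or 147 and 82.9 CPM, and Fgb 38 and 44 UMIs, or 216 and 130 CPM, with log2 ratios of -0.83 and -0.73 beside lower tumour marker sums in shSrsf10. Saa3 had 7 and 18 UMIs, from 2 and 5 barcodes. Orm1 had 33 and 14 UMIs, or 187 CPM (129 to 263) and 41.4 CPM (22.7 to 69.5), a log2 ratio of -2.18 (-3.19 to -1.23), but from only 5 and 2 barcodes. By the 1.5-fold rule 1 member was higher and 3 lower of 5 measured, against 28.6% higher and 20.8% lower of the 2563 genes measured. Without the richest barcode of each gene 1 was lower, since Fgb was at -0.41 and Orm1 fell to 18 UMIs. The neutrophil barcodes held only 176333 and 337876 UMIs in all.

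Orm1 lay in neutrophil barcodes that held granule genes, a split chosen after the data were seen. Ltf, Camp and Ngp, granule genes of neutrophil precursors, had a UMI in 13 shCtrl and 14 shSrsf10 neutrophil barcodes, and these held 32 of the 33 and 14 of the 14 Orm1 UMIs. Within them Orm1 was at 915 and 470 CPM, a log2 ratio of -0.96 (-1.98 to -0.01), in place of -2.18 over all neutrophil barcodes. Its richest barcodes held 18 Orm1 beside 680 granule gene UMIs in shCtrl, and 11 beside 1185 in shSrsf10. Of all Orm1 UMIs in kept barcodes, 33 of 98 in shCtrl and 14 of 66 in shSrsf10 lay in neutrophil barcodes.

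Part of the macrophage barcodes also held keratin UMIs. Of the 494 and 179, 85 and 33 held at least 5 keratin UMIs, and these held 62 of 93 shCtrl and 242 of 289 shSrsf10 Hp UMIs. Over all macrophage barcodes Hp was at 36.3 and 172 CPM, and 6 of 6 measured members were higher in shSrsf10 and 0 lower, where 11.3% of 9287 genes were higher and 16.2% lower. These calls rested on few barcodes: without the richest barcode of each gene and library, 1 was higher and 2 lower, with Hp at 2.38, Hpx at 0.41, Fgb at 0.27, Fga at -1.43 and Fgg at -0.61. Saa3, with 100 of its 106 shSrsf10 UMIs in 1 barcode, then fell under the minimum. In barcodes without a keratin UMI, 226 and 90, Hp was at 27.9 CPM (15.2 to 46.7) and 76.8 CPM (49.2 to 114), from 14 and 24 UMIs, with 14 of the latter in 1 barcode, against 1.04 and 8.92 CPM in T cell barcodes. Hpx there was at 37.8 and 22.4 CPM, from 19 and 7 UMIs, a log2 ratio of -0.76 (-2.25 to 0.56). Fgb was at 87.6 and 16.0 CPM, from 44 and 5 UMIs, a log2 ratio of -2.45 (-4.15 to -1.12). Both were lower in shSrsf10, but the Hpx interval held 0. T cell barcodes had similar levels of Hpx, 38.4 and 14.2 CPM, and of Fgb, 61.2 and 24.8 CPM. The higher Hpx and Fgb over all macrophage barcodes of shSrsf10 was thus not found in those without keratin, and the part of doublets and free RNA in these values was not tested.

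The other genes of the acute phase system were counted in tumour barcodes, list by list. The shares to set beside each list, over all genes measured there, were 9.43% higher and 12.9% lower. Of 25 other positive acute phase genes, 20 were measured, with 3 higher, 5 lower and 12 between, at a median log2 ratio of -0.05. The largest ratios were 3.40 for Nnmt, a methyltransferase, -2.20 for Apcs, serum amyloid P, with 21 and 4 UMIs, -1.46 for Serpina3n and 1.18 for Il1rn, the interleukin 1 receptor antagonist. Of the 9 negative acute phase genes, all measured, 0 were higher, 3 lower and 6 between, at a median of -0.34. Ttr, transthyretin, was at 2645 CPM in shCtrl and 842 CPM in shSrsf10, a log2 ratio of -1.65. Apoa1 was at -0.82, Serpina6 at -0.70 and Alb, albumin, at -0.47.

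Of the 8 inducing cytokines, 7 were measured, with 4 higher and 1 lower, against 9.43% and 12.9% of all genes measured. Il6 had 6 and 26 UMIs, a log2 ratio of 2.31 (1.00 to 3.88), Tnf had 36 and 145 UMIs, at 2.20 (1.67 to 2.77), and Il1b 252 and 460, at 1.06 (0.84 to 1.29). Il1a had 23 and 12 UMIs, at -0.75 (-1.89 to 0.32). Over all tumour barcodes the neutrophil markers summed to 23.8 and 33.05 CPM, the T cell markers to 5.51 and 20.98 CPM and the macrophage markers to 20.6 and 11.995 CPM. The 3 fibroblast markers differed most of these lists, with sums of 9.62 and 70.0 CPM, but almost all of the difference was Dcn. Col1a1 and Col1a2 were low in tumour barcodes of both libraries. In fibroblast barcodes Col1a1 was far above Dcn in shCtrl and below it in shSrsf10. The sums therefore mostly describe Dcn, and the part of fibroblast RNA in them was not tested. The part of RNA from other cells in the values of the cytokines and of Nnmt was not tested.

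Of the 12 receptors and kinases, 0 were higher, 3 lower and 9 between. The lower ones were Il6ra, the interleukin 6 receptor, at 7.99 and 4.68 CPM with a log2 ratio of -0.77, the kinase gene Jak2 at -0.67 and Il1r1 at -0.61. Il1rap, at -0.48, was between. Of the 14 transcription factors and feedback genes, 2 were higher, 3 lower and 9 between. Cebpd was at 3.68 and 0.91 CPM, a log2 ratio of -2.02 (-2.33 to -1.71), and Cebpb at 38.4 and 15.5 CPM, a ratio of -1.31 (-1.39 to -1.23). Both encode C/EBP factors. Nfkbia, an inhibitor induced by NF-kB, was at 0.89, and Bcl3 at -0.72.

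Of the 14 coagulation and clot lysis genes, 11 were measured, with 0 higher, 1 lower and 10 between, at a median of -0.34. F5, coagulation factor V, had 55 and 12 UMIs and a log2 ratio of -2.004, F11 was at -0.54, F2, prothrombin, at -0.48 and Plg, plasminogen, at 0.40. Among the 10 receptor and clearance genes, 7 were measured, with 1 higher and 1 lower. Cd36 was at -1.69 with 37 and 10 UMIs, Itgam at 0.82 with 11 and 17, Lrp1, a clearance receptor for haem bound to haemopexin, at -0.33 and Tlr2 at 0.30.

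**Figure D5:**
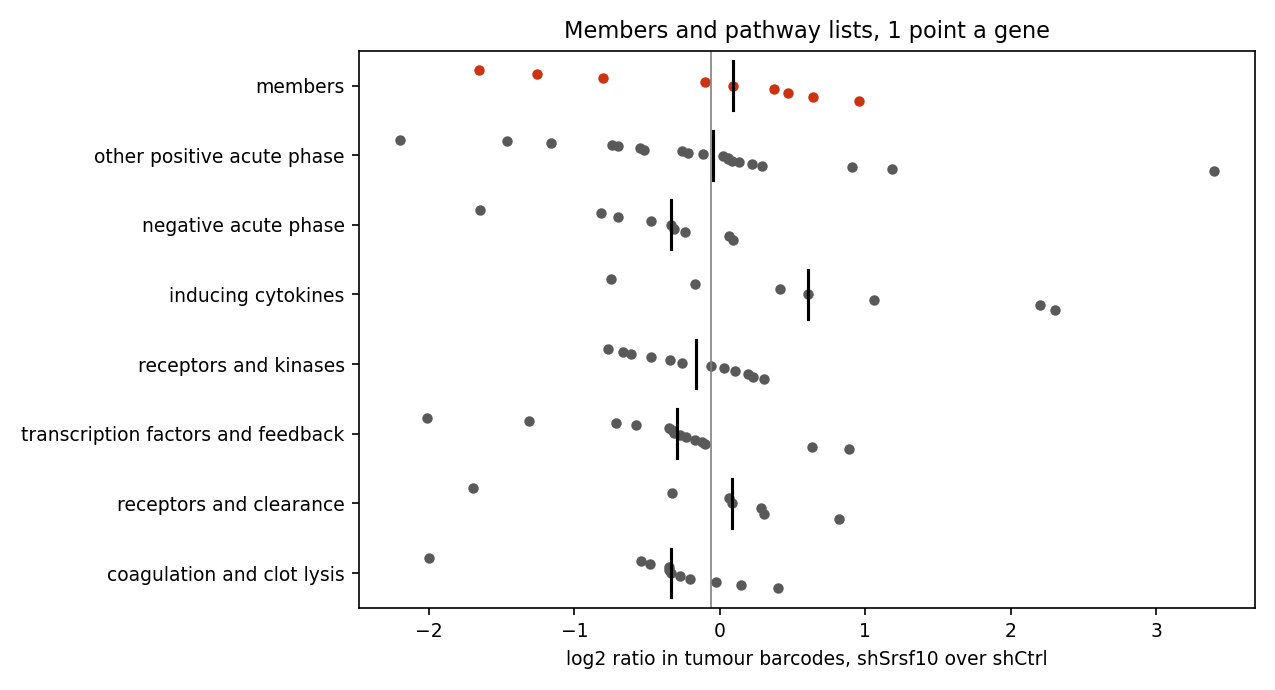
Log2 ratio in tumour barcodes, shSrsf10 over shCtrl, for the 9 measured members and for each measured gene of the 7 lists, with short vertical lines at list medians and a long line at the median of all genes measured, -0.06. Members spread from -1.66 to 0.95, and the inducing cytokines hold the highest list median, 0.61.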

How the data were processed

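Droplet single-cell RNA libraries from mouse liver tumours were analysed, 1 for shCtrl and 1 for shSrsf10. The deposited values are UMI counts per gene and barcode, made by the authors with Cell Ranger 6.1.0 on mm10, per the submitters' processing notes. The labels name both a 5′ and a 3′ kit, and both a sort with an unstated gate and a slow spin that leaves hepatocytes behind. Strand and multi-gene reads in the counting are not given in the sources used here. The lowest deposited total was 500 UMIs.

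A barcode was used if it had 200 or more genes and 500 or more UMIs, with no more than 20% of them mitochondrial. For the 40 extra gene IDs of repeated symbols, the ID with more UMIs was used. UMIs were summed per library and barcode group and divided by the group's total to give UMIs per 1000000 (CPM). T cell barcodes held at least 2 UMIs of Cd3 genes and fewer than 5 keratin UMIs, and met neither the neutrophil nor the macrophage rule. Intervals at 95% are exact Poisson for levels, conditional binomial for ratios and Clopper-Pearson for shares. They cover counting error only. Barcodes are not replicates and no test was made. Genes with fewer than 20 UMIs over both libraries were not measured. No doublet caller was run, and leaving out barcodes that met more than 1 rule was an alternative.

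The text names all 10 members, of each list at most the 4 genes with the largest absolute log2 ratio, and the 5 genes most like Hp and Saa3. Members, lists and rules were chosen with earlier results of these data known. Leaving out the richest barcode or Apoa1-rich barcodes, leaving out mixed barcodes from the MHC class II groups, and splitting by granule genes were added after seeing the data. Python 3.11.15, NumPy 2.4.6, SciPy 1.17.1, Biopython 1.88 and matplotlib 3.10.9 were used, with GENCODE release M21 for positions and transcripts and RefSeq for promoters. The code was tested on simulated data.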

Additional observations from a re-analysis of the deposited data

Results flagged for a closer look

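The same contrast, shSrsf10 over shCtrl, ran opposite ways in different barcode groups for 4 members, but the groups overlapped. In shCtrl 75 and in shSrsf10 23 barcodes met both the tumour and the macrophage rule. The log2 ratio of Hpx was -0.83 in neutrophil and 0.76 in macrophage barcodes, and that of Fgb was -0.73 and 1.06. Fga was at -0.80 in tumour and 1.77 in macrophage barcodes, and Fgg at -1.26 and 1.74. With 1 library per group the difference was not tested. In macrophage barcodes that met neither the tumour nor the neutrophil rule, Fga was at 11.3 and 2.22 CPM, from 14 and 2 UMIs. Fgg was at 16.9 and 12.2 CPM there, from 21 and 11 UMIs. Both were lower in shSrsf10, as in tumour barcodes. In macrophage barcodes without a keratin UMI, Hpx was at -0.76, with an interval that held 0, and Fgb at -2.45. Without the richest macrophage barcode of each gene and library, Fga was at -1.43 and Fgg at -0.61, the same direction as in tumour barcodes.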

How the results depend on the processing

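No paired analysis was possible because each group has 1 library. Of the alternative values for counts of members, 73 stayed within 1.5 times the count given and 29 moved. Shares over all genes measured are given above for the main settings only, so the alternative counts have no such share beside them. Of those for single members, 199 stayed within the counting interval and 65 left it. Another 18 changed the sign of a ratio that was past 1.5-fold, and 31 fell under 20 UMIs. Among ratios under 1.5-fold, 16 alternative values also changed sign, 5 of them for Orm1. The cause was not tested except where the construction shows it, such as a stricter fold.

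In tumour barcodes, members higher were 1 without barcodes meeting more than 1 rule and 0 at 2-fold, in place of 2. Members lower were 1 without the richest 1% of barcodes of each gene and 1 as a mean over depth ranges, in place of 3. In neutrophil barcodes, members higher were 2 by the mean of barcode CPM, 2 with S100a8 and S100a9 at 2% and 0 at 2-fold, in place of 1. Members lower were 0 after thinning to 2000 UMIs and 1 without keratin UMIs, without the richest barcode or at 2-fold, in place of 3. Hpx was at 0.48 there with at least 2000 UMIs.

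In macrophage barcodes, 6 members were higher and 0 lower. Higher were 2 by the mean of barcode CPM, and 1 each without barcodes meeting more than 1 rule, without the richest 1%, after thinning, with C1q at 10 UMIs, without keratin and without the richest barcode. Lower were 2 without barcodes meeting more than 1 rule, by the mean of CPM, without keratin and without the richest barcode, and 1 without the richest 1% and with C1q at 10. Directions changed for Hpx (-1.26) and Fgb (-2.42) without barcodes meeting more than 1 rule. By the mean of CPM they changed for Hpx (-0.19), Fga (-0.70), Fgb (-0.19) and Fgg (-1.09). Without the richest 1% they changed for Fga (-3.30) and Fgg (-0.52), and after thinning for Hpx (-0.46) and Fgb (-0.25). With C1q at 10 they changed for Hpx (-0.16), Fgb (-0.18) and Fgg (-1.06). Without keratin they changed for Hpx (-0.76, with an interval that held 0) and Fgb (-2.45). Without the richest barcode they changed for Fga (-1.43) and Fgg (-0.61).

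Across the MHC class II groups of shCtrl, members lower were 2 at 0.05% and 2 as a mean over depth ranges, in place of 1, and members higher were 1 by that mean, in place of 2. In shSrsf10, members lower were 1 with all barcodes under 0.1% as the low group, in place of 0, and members higher were 6 as a mean over depth ranges, in place of 3.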
